A study of Mus musculus with 10 samples.

Results

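Transcript counts were described for 10 genes of the p38 mitogen-activated protein kinase (MAPK) pathway, 6 MAPK dual-specificity phosphatases (Dusp1, Dusp2, Dusp4, Dusp5, Dusp6 and Dusp10) and 4 kinases of the p38 module (Map2k3, Map2k6, Mapk14 and Mapkapk2), out of 52550 genes in the count table. They were found by symbol through their Ensembl identifiers, and each of the 10 was measured, with the lowest total over all libraries at Dusp4 (1241 counts) against a minimum of 10. The set was put together around the DOX response of MLL-AF9-i139 cells, in which Dusp1 was higher and Map2k6 lower. For that response the values of the 10 genes are therefore given as a description, with no test. The other comparisons were not used in choosing them and were tested.

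The cells were bone marrow cells enriched for hematopoietic stem and progenitor cells (HSPCs) from WT C57BL/6 mice of 8 to 20 weeks, transformed with a retrovirus that expressed the MLL-AF9 fusion oncogene (with a neomycin or a puromycin marker). MLL-AF9-i139 cells carried in addition the repressor tetR-KRAB, under hygromycin selection, and the lentiviral vector pCW-miR-139, from which doxycycline (DOX) induces miR-139. MLL-AF9-ieGFP cells carried a vector of the same kind from which DOX induces eGFP (pCW-ieGFP), and tetR-KRAB is described for MLL-AF9-i139 only. The 4 groups were MLL-AF9-i139 without DOX (n = 3) and with DOX at 5 µg/mL (n = 3), and MLL-AF9-ieGFP without DOX (n = 2) and with DOX (n = 2). MLL-AF9-i139 clones 1 and 2 received DOX for 48 h and clone 3 for 72 h, while no time is given for their untreated cultures. The MLL-AF9-ieGFP libraries come from 1 clone at 48 h and at 72 h, so that construct and clone cannot be told apart, and in MLL-AF9-i139 neither can the longer treatment and clone 3. The MLL-AF9-i139 clones were picked colonies, each sequenced once per condition.

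In the p38 cascade, a MAPK kinase kinase phosphorylates the MAPK kinases MKK3 (Map2k3) and MKK6 (Map2k6), these phosphorylate p38α (Mapk14) on a threonine and a tyrosine, and p38α activates the kinase MK2 (Mapkapk2), which stabilises cytokine mRNAs and acts on stress responses. Dual-specificity phosphatases remove both phosphates. Dusp1 and Dusp10 prefer p38 and JNK, Dusp5 and Dusp6 act on ERK, and Dusp2 and Dusp4 are nuclear enzymes with activity towards ERK and other MAPKs. Dusp1, Dusp2, Dusp4 and Dusp5 are transcribed within a short time after growth factor or stress signals, whereas Dusp6 follows ERK activity as a feedback inhibitor. In myeloid cells Dusp1 limits the cytokine response.

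Total counts ranged from 35133308 to 47089725 per library. Mir139 itself was at 0 counts in all 10 libraries, which for counted reads allows up to 0.0637 to 0.0854 CPM (3 counts of the library). CPM is the count scaled to the library size. The host gene of Mir139, Pde2a, was at 1 count. Mir139 lies in an intron of Pde2a on the same strand, where reads can be lost as ambiguous if gene bodies were counted. Libraries of long RNA do not measure a mature miRNA, so the induction was not checked by these counts. Of 8 myeloid progenitor markers, Kit, Fcgr3, Mpo, Elane, Ctsg and Prtn3 were expressed in all groups, while Cd34 was at or near 0 (at most 0.418 CPM in any library). The summed level of the 8 was 2823 to 4468 CPM in untreated and 4173 to 6764 CPM in treated MLL-AF9-i139, and 3033 to 5009 CPM in MLL-AF9-ieGFP. Itgam (CD11b), 1 of the 8, was at 6 counts in total, but it lies within the annotated readthrough gene Gm49368, where reads can be lost as ambiguous. T cell markers (5 genes) summed to at most 0.689 CPM, and B cell, erythroid, megakaryocyte and stromal markers to at most 3.00 CPM. Mature neutrophil genes (9 genes) summed to 130 to 223 CPM in untreated and 193 to 361 CPM in treated MLL-AF9-i139, and to 284 to 399 CPM in MLL-AF9-ieGFP. Over 19223 genes the median absolute DOX difference was 0.38 and 0.39 in clones 1 and 2 and 0.21 in clone 3 on the log2 scale, against 0.13 and 0.15 in MLL-AF9-ieGFP at 48 h and 72 h. Clone 3 therefore stood apart from the other clones.

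The 2 mature arms of the induced hairpin are printed because a seed match in a 3′ UTR is the usual mark of a direct target. The seed (bases 2 to 8) is in capitals, and sequences and positions are from RefSeq (GRCm38.p6), with miR-139-5p at chr7:101475382-101475403 and miR-139-3p at chr7:101475418-101475439 on the plus strand.
miR-139-5p: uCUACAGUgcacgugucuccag
miR-139-3p: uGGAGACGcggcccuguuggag
None of the 10 annotated 3′ UTRs (the longest per gene) held a 7- or 8-base match to miR-139-5p, and 2 held a match to miR-139-3p. Among 14056 tested genes with a 3′ UTR, 22.6% held a match to the first arm and 17.3% to the second. In Dusp4 an 8-base match covers positions 106 to 113 of a UTR of 1111 nt, and in Mapk14 a 7-base match (seed bases 2 to 7 followed by A) covers positions 1751 to 1757 of 3042 nt, each shown within 30 bases with the match in capitals.
Dusp4 site: tgaccaggctcCGTCTCCAtttctccttgg
Mapk14 site: tcagtgcagagGTCTCCAgtgccgagcaca
Dusp1 and Map2k6, the 2 genes with the largest DOX difference, held neither.

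Levels were compared between genes per kilobase of merged exons. On this scale Mapkapk2, Mapk14 and Map2k3 were the most abundant: median levels over the 10 libraries were 117 CPM per kb for Mapkapk2 (109 to 125), 61.1 for Mapk14 (52.9 to 67.6) and 20.4 for Map2k3 (17.3 to 22.7), with no overlap between these 3. Dusp2 followed at 6.61 CPM per kb (4.55 to 13.4) and did not reach the lowest value of Map2k3. Below it the ranges of neighbours overlapped, with Dusp6 at 4.44, Dusp5 at 2.03, Dusp10 at 1.74, Map2k6 at 1.40, Dusp1 at 1.25 and Dusp4 at 1.11 CPM per kb. Per kilobase of gene body, which matters if intronic reads were counted, Mapkapk2 stayed first and Map2k6, with a body of 126401 nt, came last. Dusp2 moved from place 4 to place 2, above Mapk14. Map2k3 moved from place 3 to place 5, below Dusp2 and Dusp6. The level of Map2k3 per kb of exon was 8.20 to 17.3 times that of Map2k6 in the 7 libraries without induced miR-139 and 24.7 to 32.1 times in the 3 DOX-treated MLL-AF9-i139 libraries.

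**Figure D1:**
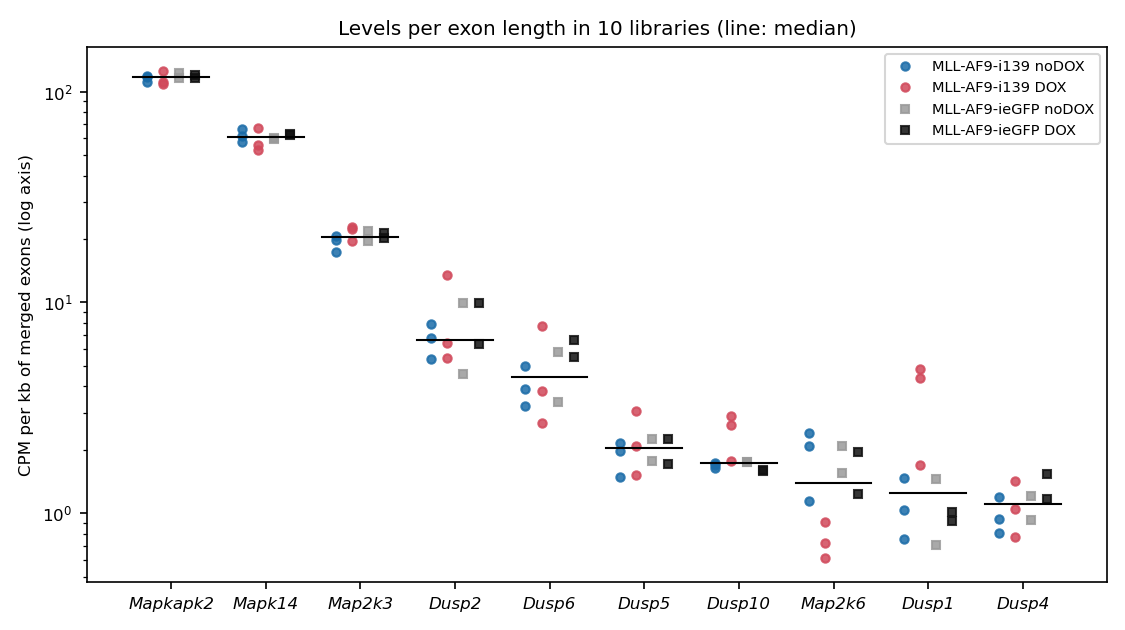
Level of each of the 10 genes in CPM per kb of merged exons (log axis) in the 10 libraries, with circles for MLL-AF9-i139, squares for MLL-AF9-ieGFP and a line at the median. Mapkapk2, Mapk14 and Map2k3 do not overlap with each other or with the phosphatases, whereas the lower genes do.

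Dusp1 (chr17:26505590-26562128, minus strand, GRCm38), the phosphatase MKP-1, varied most among the 10 genes, with a 6.84-fold range over the libraries. Without DOX the MLL-AF9-i139 clones 1, 2 and 3 had 3.44, 2.51 and 4.84 CPM (168, 110 and 191 counts), and with DOX they had 14.5, 16.05 and 5.59 CPM (694, 631 and 220 counts). The groups did not overlap, but only clones 1 and 2 stood far above their untreated cultures. The difference within a clone was 4.17-fold and 6.30-fold in clones 1 and 2 and 1.15-fold in clone 3, where counting error alone covers 4.18 to 5.58 CPM without DOX and 4.87 to 6.38 CPM with DOX (95% exact Poisson intervals). Group means were 12.04 ± 5.64 CPM with and 3.60 ± 1.17 CPM without DOX (SD, n = 3 each), and the fitted log2 fold change was 1.76 (SE 0.41). It was 2.38 without clone 3, 1.29 without clone 2 and 1.56 without clone 1. MLL-AF9-ieGFP had 2.35 and 4.82 CPM without DOX and 3.04 and 3.35 CPM with DOX at 48 h and 72 h, within the range of untreated MLL-AF9-i139 but for the 48 h culture without DOX. The annotated body overlaps Ergic1 on the other strand, and 6.5% of it lies in other genes.

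The proximal promoter of Dusp1 is shown because it was the only promoter of the set that held a cAMP response element (CRE, TGACGTCA), the kind of element for which this gene is known. The stretch runs from 168 to 96 bases before the listed promoter start (chr17:26508568-26508640, minus strand, RefSeq, GRCm38.p6), with the CRE and an E-box (CACGTG) in capitals. This start lies inside the annotated body of Dusp1, which reaches upstream to position 26562128. Promoters with matches in 2 other phosphatases are shown beside it, an E-box in Dusp2 (chr2:127336025-127336080, plus strand) and a tandem pair of CArG boxes, the serum response factor motif, in Dusp5 (chr19:53529038-53529107, plus strand).
Dusp1: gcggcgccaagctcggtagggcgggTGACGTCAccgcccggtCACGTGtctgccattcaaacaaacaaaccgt
Dusp2: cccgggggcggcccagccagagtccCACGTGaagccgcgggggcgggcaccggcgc
Dusp5: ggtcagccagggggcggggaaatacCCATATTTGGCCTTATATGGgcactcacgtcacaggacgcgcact
Motifs were searched on both strands of 300 bases around each listed start, which for Dusp10 also lies inside the annotated body. Among 32851 promoters the CRE was in 1.79%, the E-box in 7.15%, the CArG box in 1.63% and the AP-1 motif (TGACTCA) in 5.2%. The promoters of Dusp6, Dusp10, Map2k3, Map2k6, Mapk14 and Mapkapk2 held none of the 4, and Dusp4 was not matched. A match is a description of letters and not of binding.

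Dusp10 (chr1:184013302-184075636), the phosphatase MKP-5, was the second member of the p38- and JNK-directed class. It had 5.12, 4.99 and 5.25 CPM in untreated clones 1, 2 and 3 and 7.96, 8.82 and 5.36 CPM with DOX. The groups did not overlap, and again clones 1 and 2 were clearly above the untreated level while clone 3 was 1.02-fold above its own. The fitted log2 fold change was 0.54 (SE 0.22), from 5.12 ± 0.127 to 7.38 ± 1.80 CPM (SD, n = 3). In MLL-AF9-ieGFP the level was 5.33 and 5.31 CPM without and 4.82 and 4.87 CPM with DOX, slightly lower with DOX at both times but within counting error.

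Of the ERK-directed enzymes and the nuclear phosphatases, Dusp2 (chr2:127336159-127338376) and Dusp6 (chr10:99263231-99267489) shared a pattern unlike that of Dusp1. Dusp2 had 13.6, 10.8 and 15.9 CPM in untreated clones 1, 2 and 3 and 12.8, 10.9 and 26.9 CPM with DOX. Dusp6 had 12.2, 10.1 and 15.6 CPM without and 11.9, 8.39 and 24.2 CPM with DOX. Of the MLL-AF9-i139 clones, clone 3 alone stood out here, and clones 1 and 2 were close to or below their untreated cultures. Dusp4 (chr8:34807297-34819894) had 3.26, 2.21 and 2.56 CPM without and 2.86, 2.11 and 3.89 CPM with DOX, with clone 3 again the only one higher. The fitted log2 fold changes were 0.34 (SE 0.33) for Dusp2, 0.24 (SE 0.36) for Dusp6 and 0.15 (SE 0.28) for Dusp4, each of about the size of its error or smaller. Without clone 3 they were -0.02, -0.12 and -0.11. In MLL-AF9-ieGFP at 48 h, Dusp2 was at 9.12 CPM without and 12.8 CPM with DOX, Dusp6 at 10.5 and 17.3, and Dusp4 at 2.54 and 3.21. At 72 h the values were 19.85 and 19.88, 18.3 and 20.8, and 3.31 and 4.22 CPM. The fitted log2 fold changes there were 0.18, 0.41 and 0.35, with intervals that include 0.

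Dusp5 (chr19:53529109-53542431), a nuclear ERK phosphatase, had 5.31, 4.90 and 3.68 CPM without and 7.54, 5.16 and 3.73 CPM with DOX in clones 1, 2 and 3. Only clone 1 was well above its untreated culture (1.42-fold), and the groups overlapped. The fitted log2 fold change was 0.26 (SE 0.29). A stretch of 22.1% of its exon length is shared with an antisense annotation that has no row in the table.

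In the kinase module the DOX difference lay in Map2k6 (chr11:110399122-110525522), which encodes MKK6. Its level was 8.26, 7.16 and 3.95 CPM in untreated clones 1, 2 and 3 (403, 314 and 156 counts) and 3.11, 2.49 and 2.11 CPM with DOX (149, 98 and 83 counts). The highest value with DOX was below the lowest value without it. The level with DOX was 0.38, 0.35 and 0.54 times the untreated level in clones 1, 2 and 3, so that clone 3, which was lowest before DOX, showed the difference as well. Group means were 2.57 ± 0.506 CPM with and 6.46 ± 2.24 CPM without DOX (SD, n = 3), and the fitted log2 fold change was -1.31 (SE 0.30), between -1.44 and -1.21 when any 1 clone was left out. MLL-AF9-ieGFP had 7.19 and 5.37 CPM without and 6.68 and 4.24 CPM with DOX at 48 h and 72 h, each above every DOX-treated MLL-AF9-i139 library.

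The partner kinase Map2k3 (chr11:60932033-60952811) was at 65.2, 68.7 and 57.5 CPM without and 74.1, 75.2 and 65.2 CPM with DOX, 1.09- to 1.14-fold higher in each clone with a log2 fold change of 0.18 (SE 0.11), and the groups overlapped. Mapk14 (chr17:28691329-28748406) was at 253, 269 and 290 CPM without and 245, 232 and 296 CPM with DOX, and Mapkapk2 (chr1:131053700-131097826) at 337, 361 and 358 CPM without and 331, 380 and 337 CPM with DOX. Neither gene moved in a shared direction over the clones, with log2 fold changes of -0.06 (SE 0.12) and 0.00 (SE 0.10). Over all 10 libraries the coefficient of variation was 4.5% for Mapkapk2, 7.38% for Mapk14 and 7.84% for Map2k3, against 43.2% for Map2k6 and 82.5% for Dusp1.

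**Figure D2:**
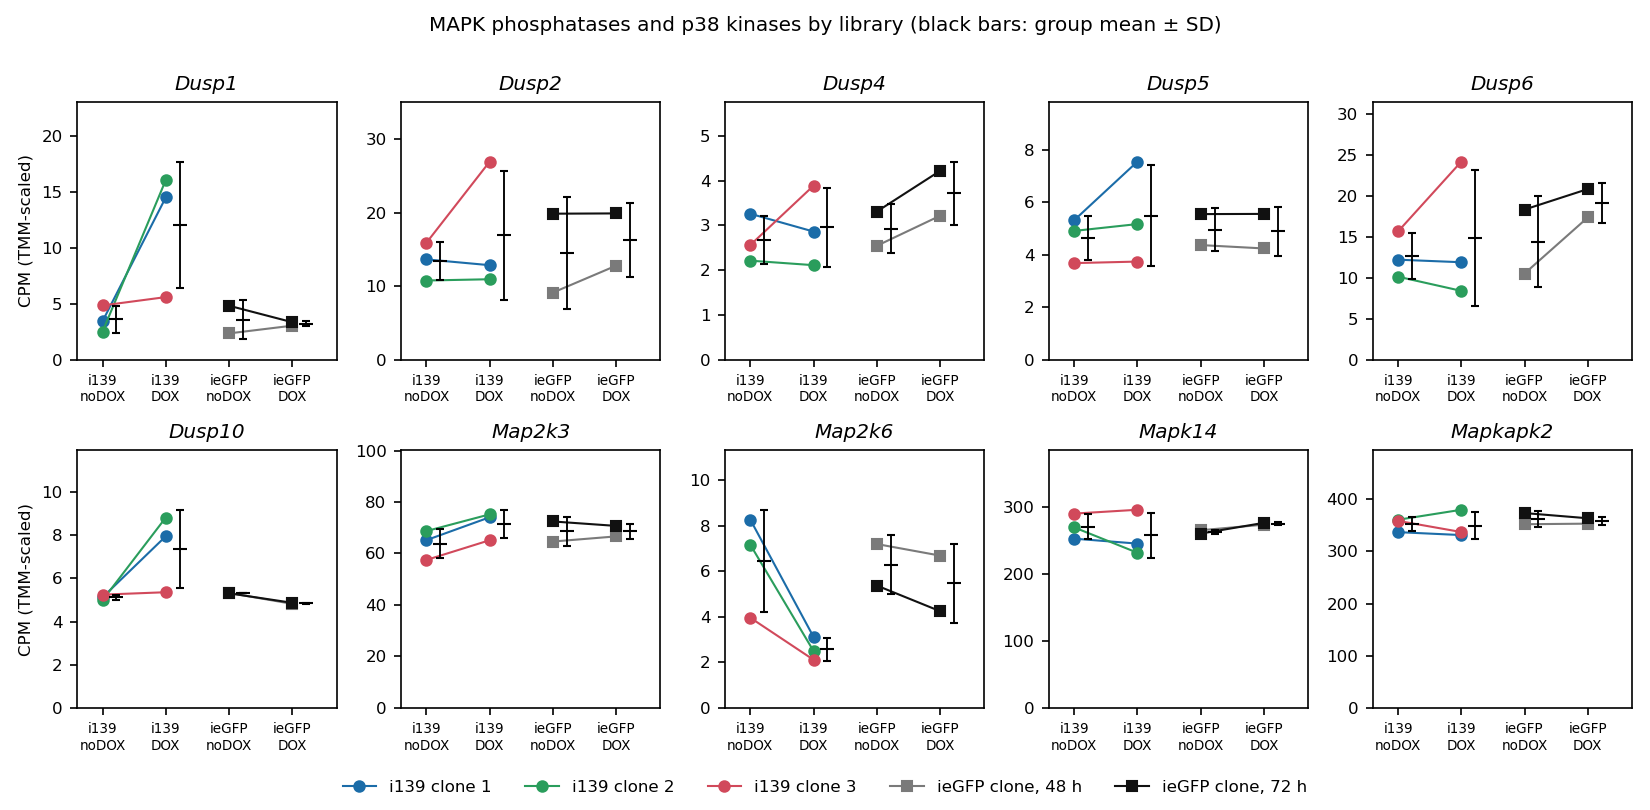
CPM (TMM-scaled, axes from 0) of each gene in each library, with a line joining the cultures of 1 clone or time without and with DOX and black bars for the group mean ± SD. In MLL-AF9-i139, Dusp1 and Dusp10 are well above their untreated level in clones 1 and 2, and Dusp2 and Dusp6 in clone 3 alone with overlapping groups. Map2k6 is lower with DOX in each MLL-AF9-i139 clone. In MLL-AF9-ieGFP, Dusp2 and Dusp6 are also higher with DOX at 48 h.

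Counted over the set, the treated and untreated MLL-AF9-i139 groups did not overlap for 3 of the 10 genes, higher for Dusp1 and Dusp10 and lower for Map2k6, beside 24.9% of 19223 genes overall. The median log2 fold change was 0.30 over the 6 phosphatases and -0.03 over the 4 kinases, against 0.01 over all genes. As the set was chosen on this contrast, nothing is read from that count or from these medians. The fitted changes of Dusp2, Dusp4 and Dusp6 were above 0 only with clone 3 included.

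**Figure D3:**
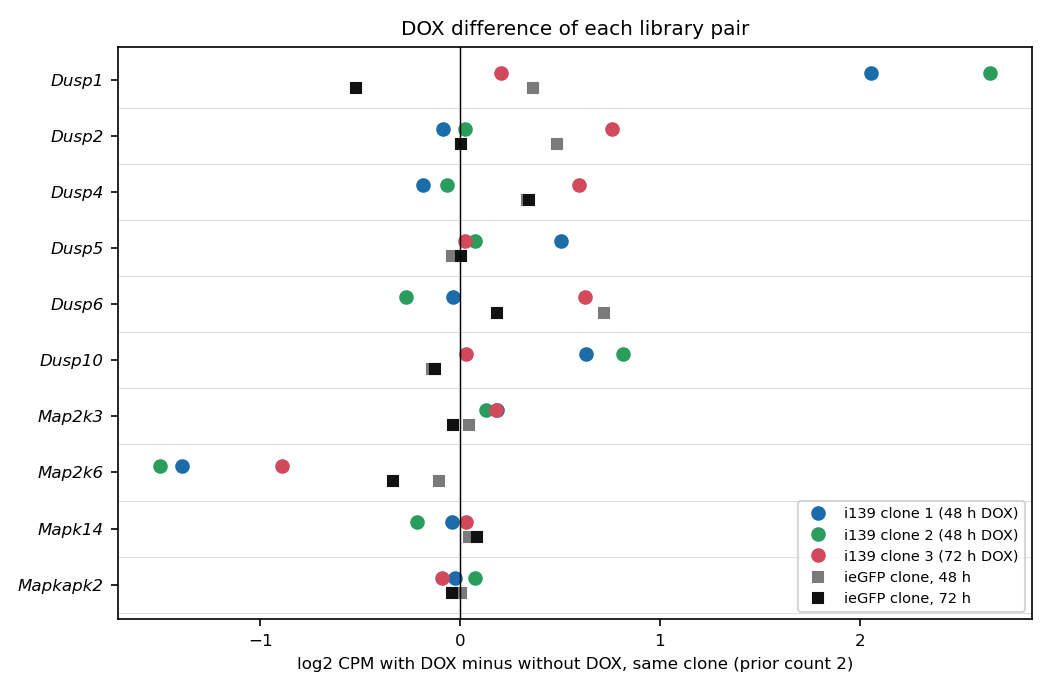
Difference in log2 CPM (prior count 2) between the cultures with and without DOX of the same clone, for 3 MLL-AF9-i139 clones (circles) and 2 times of the MLL-AF9-ieGFP clone (squares). For Dusp1 clones 1 and 2 lie at 2.06 and 2.65 and clone 3 at 0.21, and for Map2k6 the 3 clones lie at -0.89 or below.

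The effect of DOX without the miR-139 vector was tested in MLL-AF9-ieGFP, where DOX also induces eGFP, with 1 fit of 4 groups over the 10 libraries. By edgeR's quasi-likelihood test none of the 10 genes passed an adjusted p under 0.05 (adjusted p = 1.0 for each), beside 0.0% of all 20269 genes. At an unadjusted p under 0.05 there were 0 of the 10, beside 1.28% of all genes (259), and DESeq2 called 1 gene, which was none of the 10. With the time point as a block, the lowest unadjusted p of the 10 was 0.0501 (edgeR), for Dusp6. The largest log2 differences without the block were 0.41 for Dusp6 (0.72 at 48 h and 0.18 at 72 h) and 0.35 for Dusp4 (0.33 and 0.35). The difference was -0.16 for Dusp1 on the log2 scale, with a 95% interval of 0.421- to 1.91-fold, and -0.20 for Map2k6, with an interval of 0.505- to 1.497-fold. Directions differed between the times for Dusp1, at 0.37 at 48 h and -0.52 at 72 h. On the log2 scale the intervals were widest for Dusp1, Dusp2 (0.571- to 2.24-fold) and Dusp6 (0.692- to 2.54-fold) and narrowest for Mapkapk2 (0.849- to 1.15-fold). Each arm held 2 cultures of 1 clone, and the fit shared its spread with the MLL-AF9-i139 groups. The p-values and intervals therefore do not measure the spread of these cultures alone. In a fit of the 4 MLL-AF9-ieGFP libraries alone the unadjusted p (edgeR) was 0.128 for Dusp6 and 0.192 for Dusp4. In the fit of 10 libraries it was 0.359 and 0.306. A change within the intervals could not be told from none.

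Untreated MLL-AF9-i139 and MLL-AF9-ieGFP cells were compared to see whether the clones started from different levels. The 2 MLL-AF9-ieGFP libraries were 2 times of 1 clone, and no time is given for the untreated MLL-AF9-i139 cultures. The p-values and intervals therefore do not measure the spread between MLL-AF9-ieGFP clones. None of the 10 genes passed (edgeR, adjusted p = 1.0 for each), beside 0.0444% of 20269 genes (9 called), and none had an unadjusted p under 0.05, beside 2.48% of all genes. Dusp1 was at 3.60 ± 1.17 CPM in 3 MLL-AF9-i139 libraries and 3.58 ± 1.75 CPM in 2 MLL-AF9-ieGFP libraries (SD), with an interval of 0.508- to 2.00-fold. Its log2 difference depended on the time used, at -0.46 without the 48 h MLL-AF9-ieGFP cultures and 0.63 without the 72 h ones. For Dusp2 these values were -0.60 and 0.57. Map2k6 was at 6.46 ± 2.24 and 6.28 ± 1.29 CPM (SD), with an interval of 0.628- to 1.69-fold. The 3 other kinases and the 5 other phosphatases are shown with their intervals in the plot of tested differences.

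**Figure D4:**
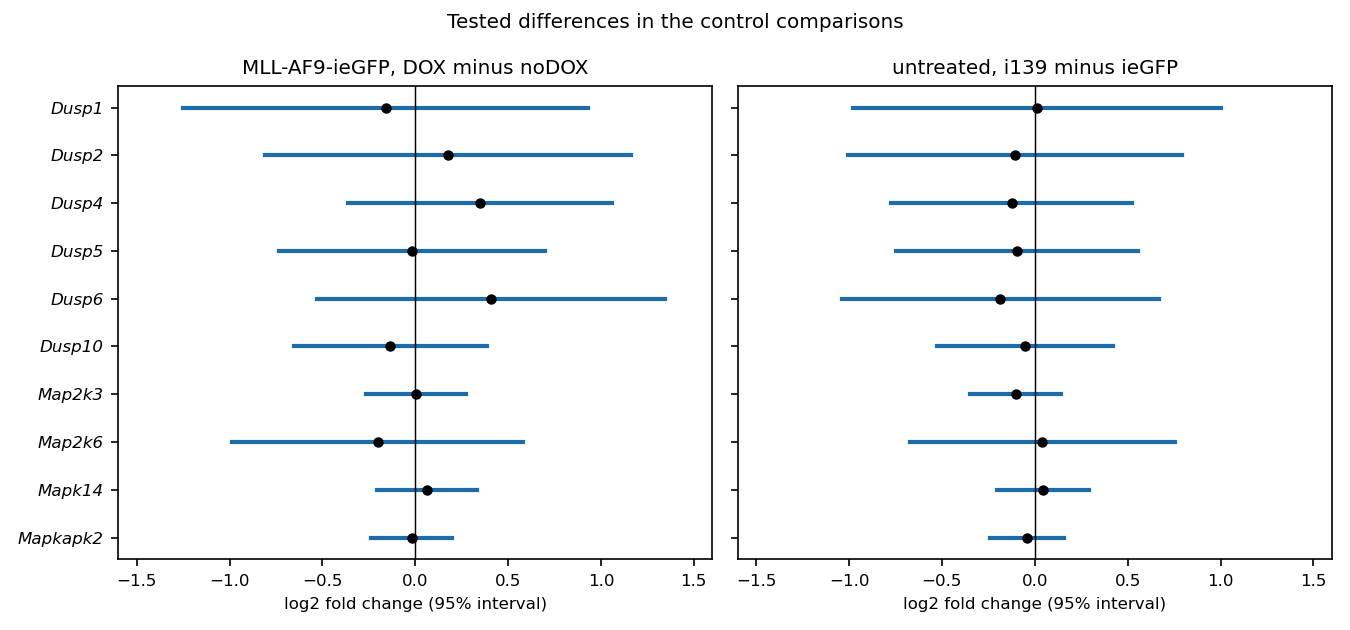
Log2 fold change with its 95% interval (edgeR quasi-likelihood fit of 10 libraries) for DOX minus no DOX in MLL-AF9-ieGFP on the left and untreated MLL-AF9-i139 minus untreated MLL-AF9-ieGFP on the right. Every interval includes 0, and the intervals of the abundant kinases Map2k3, Mapk14 and Mapkapk2 are the narrowest.

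The MLL-AF9-ieGFP clone also showed how these genes stood at 2 culture times, without a test as each time is 1 library per condition. With and without DOX, 7 of the 10 genes were higher at 72 h than at 48 h and 1 was lower, beside 31.0% and 31.7% of all genes. Dusp2 was 2.17-fold higher without and 1.55-fold higher with DOX, and it was the only one of the 10 at least 1.5-fold higher in both conditions, beside 2.66% of all genes. None was at least 1.5-fold lower in both, beside 3.15% of all genes. Dusp6 was 1.74-fold and 1.20-fold higher at 72 h. Map2k6 was lower at 72 h, at 0.748 and 0.638 times the 48 h level, and Dusp1 was 2.03-fold and 1.10-fold higher. Mapk14 and Mapkapk2 differed by at most 1.06-fold. In MLL-AF9-i139, clone 3 was the only one treated for 72 h. Both with and without DOX, it was the highest of the 3 clones for Dusp2, Dusp6 and Mapk14 and the lowest for Map2k6, Dusp5 and Map2k3. In MLL-AF9-ieGFP, Dusp5 was 1.27-fold higher without and 1.31-fold higher with DOX at 72 h, and Map2k3 1.12-fold and 1.06-fold higher. Whether the time of culture played a part in the order of the clones was not tested.

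As a share of the summed level of the 6 phosphatases per kb, Dusp1 took 5.49% to 7.89% in untreated MLL-AF9-i139 and 4.4% to 6.49% in the 4 MLL-AF9-ieGFP libraries. With DOX it took 20.6% and 25.9% in clones 1 and 2, and 6.13% in clone 3. Dusp2 was the most abundant of the 6 in all 10 libraries. The ratio of Dusp1 to Map2k6 per kb, the pair that stood for phosphatase and kinase in the choice of the set, was 0.364 to 1.27 in untreated MLL-AF9-i139, 0.339 to 0.933 in MLL-AF9-ieGFP and 6.70, 4.84 and 2.76 in DOX-treated clones 2, 1 and 3.

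The rest of the pathway was counted on 5 lists with 89 genes, of which 82 were tested in MLL-AF9-i139. The lists were chosen with earlier results of these data known, so their shares beside those of all genes are a description. Without a clone term, 0 of 82 passed an adjusted p under 0.05 (edgeR), beside 0.0624% of all genes, and 21 of them (25.6%) had an unadjusted p under 0.05, beside 20.6% of all genes. Clone numbers pair the cultures, and with the clone as a block 12 passed as higher and 2 as lower (17.1% of 82), beside 12.4% of all genes (7.05% higher, 5.33% lower). DESeq2 called 11 higher and 0 lower, beside 8.09% of all genes (5.03% higher, 3.07% lower). Leaving out clone 3 without a block, 21 passed as higher and 3 as lower, beside 21.7% of 18359 genes (11.6% higher, 10.1% lower). The median log2 fold change over the 82 was 0.13. None of the 84 listed genes tested in 10 libraries passed in MLL-AF9-ieGFP or between the untreated groups by edgeR or DESeq2, and 0 and 3 of them had an unadjusted p under 0.05 (edgeR).

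**Figure D5:**
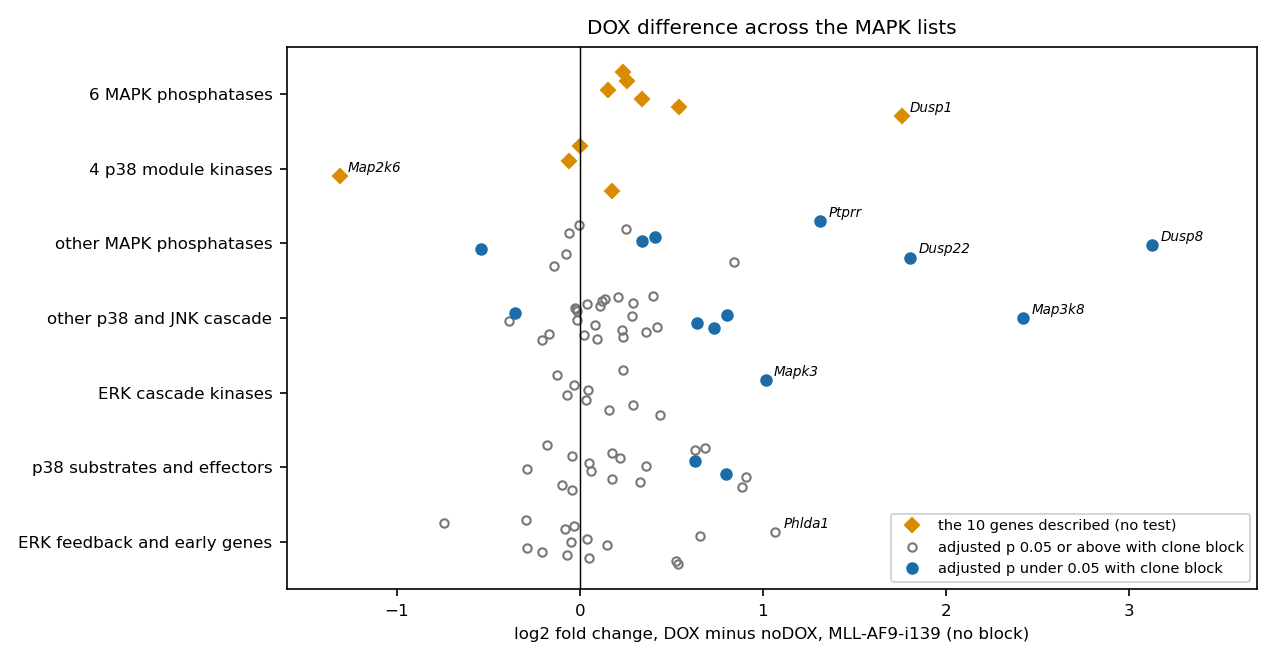
Log2 fold change for DOX in MLL-AF9-i139 (edgeR, no block) of each tested gene on the lists, with filled circles for an adjusted p under 0.05 with the clone as a block and diamonds for the 10 genes described, which were not tested. Most listed genes lie near 0, and Map3k8, Dusp8, Dusp22, Ptprr, Phlda1 and Mapk3 lie above 1, of which Phlda1 did not pass.

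Among 12 tested other MAPK phosphatases, with the clone block 5 rose and 1 fell (50.0%, beside 12.4% of all genes). As this list was chosen with earlier results of these data known, no excess is read from that share. None of them passed without the block, where their median log2 fold change was 0.30. Ptprr, a receptor-type tyrosine phosphatase that binds ERK and p38, was at 10.5, 8.05 and 6.21 CPM without and 28.0, 18.6 and 14.2 CPM with DOX in clones 1, 2 and 3. It rose in all 3 clones by a log2 fold change of 1.31 (SE 0.28; edgeR, adjusted p = 0.00915 with the block and 0.100 without). Dusp7, a cytoplasmic ERK phosphatase, fell by 0.54 on the log2 scale (SE 0.21; edgeR, adjusted p = 0.0408 with the block and 0.213 without), with clone differences of -0.60, -0.91 and -0.25. The other 4 that rose, Dusp8, Dusp22, Ppm1a and Ppm1b, fall outside the naming rule and were named after their values were seen. Dusp8, at a total of 240 counts in the 10 libraries, was lower with DOX in clone 3. Dusp22 had a total of 160 counts and a log2 fold change of -1.78 with DOX in MLL-AF9-ieGFP. Dusp9 and Dusp19, at 7 and 1 counts in total, were not measured, and Dusp19 overlaps Nup35 on the same strand, where reads can be lost as ambiguous.

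Of 27 tested genes of the p38 and JNK cascade, 4 rose and 1 fell with the block (18.5%, beside 12.4% of all genes). Mapk13, which encodes p38δ, was at 10.5, 11.2 and 15.1 CPM without and 18.0, 24.3 and 21.5 CPM with DOX, higher in each clone with a log2 fold change of 0.81 (SE 0.19; edgeR, adjusted p = 0.0253 with the block and 0.105 without). Map3k8 (TPL2), a MAPK kinase kinase of inflammatory signalling, was at 1.15, 0.98 and 0.913 CPM without and 8.42, 6.59 and 1.17 CPM with DOX, so that, as for Dusp1, clone 3 was close to its untreated culture. Its log2 fold change was 2.42 (SE 0.62; edgeR, adjusted p = 0.0336 with the block and 0.118 without). Map3k5 (ASK1) and Map3k20 (ZAK), stress-activated kinases upstream of p38 and JNK, rose by 0.64 and 0.73 on the log2 scale (edgeR, adjusted p = 0.0282 and 0.0237 with the block, 0.135 and 0.110 without). Over clones 1, 2 and 3 the differences were 0.76, 0.83 and 0.29 for Map3k5 and 0.86, 0.83 and 0.39 for Map3k20. The 1 that fell was Mapk8 (JNK1, chosen after its values were seen), with edgeR's adjusted p = 0.0498 with the block and 0.212 without and clone differences of -0.39, -0.51 and -0.23. Mapk10 and Mapk11 were at 8 and 1 counts in total and Map2k7 at 9, and Map2k7 lies within the annotated readthrough gene Gm49320, where reads can be lost as ambiguous.

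In the ERK cascade 1 of 10 genes passed with the block (10.0%, beside 12.4% of all genes). This was Mapk3 (ERK1), at 60.0, 66.5 and 48.8 CPM without and 135, 149 and 66.4 CPM with DOX. It rose by a log2 fold change of 1.02 (SE 0.28; edgeR, adjusted p = 0.0245 with the block and 0.124 without). Araf, a RAF kinase, had a log2 fold change of 0.44 (0.51, 0.61 and 0.12 in clones 1, 2 and 3) and missed the threshold with the block (edgeR, adjusted p = 0.0534). On the list of p38 substrates and effectors 2 of 18 passed with the block, both higher (11.1%, beside 12.4% of all genes). Mknk1, a kinase of the translation factor eIF4E, had a log2 fold change of 0.63. Lcp1, better known as an actin-bundling protein than as a p38 effector, had 0.80. Their adjusted p was 0.0422 and 0.0296 with the block and 0.145 and 0.111 without (edgeR). For both, clone 3 was far below the other clones, with differences of 0.75, 0.82 and 0.15 for Mknk1 and 1.00, 0.96 and 0.27 for Lcp1 in clones 1, 2 and 3. Of 15 tested ERK feedback and early genes 0 passed with the block by edgeR, beside 12.4% of all genes, and 0 by DESeq2, beside 8.09%. An unadjusted p under 0.05 without the block (edgeR) was found for 1, beside 20.6% of all genes. The values were -0.74 (SE 0.35) for Spry1, an inhibitor of receptor tyrosine kinase signalling, and 0.66 (SE 0.28) for Ier3, a stress-induced early gene, with -0.20 and 0.13 in clone 3. The list's median log2 fold change was -0.03. Markers moved in the same libraries: with the block, 4 of 7 tested progenitor genes and 2 of 8 tested mature neutrophil genes rose, and 2 of 5 genes of the MLL-AF9 program fell. Of all genes 7.05% rose and 5.33% fell with the block. Of 5 tested macrophage genes 1 rose and 1 fell, and 1 of 3 megakaryocyte and 1 of 3 mast cell genes rose. Without the block no marker passed on any list. All 5 genes of the MLL-AF9 program summed to 763 to 858 CPM without and 660 to 785 CPM with DOX, ranges that overlap. The part of these cell type genes in the MAPK values was not tested, and in bulk RNA fewer cells of a kind and less RNA per cell cannot be told apart.

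The genes whose pattern over the 10 libraries was most like that of Dusp1 were Ptafr, Dhrs3 and Stk17b, with a root mean square difference of 0.23, 0.27 and 0.28 in centred log2 CPM, where the median of 10759 genes was 0.93. Ptafr, the receptor for platelet-activating factor, was at a mean of 4.46 CPM without and 18.2 CPM with DOX in MLL-AF9-i139 and at 4.47 and 4.54 CPM in MLL-AF9-ieGFP. For Map2k6 the closest were Best4-ps, Matn2 and Hsph1, at 0.20, 0.27 and 0.28, where the median was 0.67. Hsph1, a heat shock protein, was at a mean of 156 CPM without and 83.4 CPM with DOX in MLL-AF9-i139 and at 152 and 140 CPM in MLL-AF9-ieGFP. The likeness describes levels in these libraries, most of it the DOX-treated MLL-AF9-i139 cultures.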

How the data were processed

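Total RNA libraries depleted of ribosomal RNA were sequenced by the authors from 10 cultures. The authors mapped reads to GRCm38 with STAR 2.5.3e, counted them per gene with FeatureCounts 1.6.0 on GENCODE M15 and deposited raw counts, without normalization. Strand and feature settings are not given in the sources used here. The 14 further columns of other samples were not used. Symbols, gene positions and overlaps came from a later GENCODE release on GRCm38. Groups followed the sample titles. Counts were tested with edgeR 4.0.16 (quasi-likelihood, TMM, at least 10 counts in total, Benjamini-Hochberg adjustment, R 4.3.3). DESeq2 1.42.0, RLE size factors, 2 other filters, other sets of libraries, a replicate block and each replicate left out were alternatives. Clone differences are in log2 CPM with a prior count of 2. The cultures of a clone deviated together (r = 0.378, 0.285 and 0.411, n = 19223 genes), so clones pair the MLL-AF9-i139 libraries. Scripts were tested on simulated data. Intervals cover counting error only where stated.

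The 10 genes and the lists were chosen with earlier results of these data known. Beyond the 10, at most 12 listed genes were named by the largest log2 fold change at an average log2 CPM of at least 1 and 1 sign in 3 clones.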

Additional observations from a re-analysis of the deposited data

Results flagged for a closer look

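Dusp10 had opposite signs of the DOX difference in the constructs, which for MLL-AF9-ieGFP was within counting error. It was higher with DOX in MLL-AF9-i139 clones 1 and 2. In clone 3 it was higher by 0.03 on the log2 scale, within counting error (5.25 CPM without and 5.36 CPM with DOX). It was lower with DOX at both times of the MLL-AF9-ieGFP clone. The 95% exact Poisson intervals there overlapped, at 4.68 to 6.04 CPM without and 4.16 to 5.56 CPM with DOX at 48 h. At 72 h they were 4.57 to 6.14 and 4.18 to 5.64 CPM. The log2 fold changes of the fits differed by 0.675. The difference was not tested, as the set was chosen on the first contrast. Of 19223 genes, 10.6% showed opposite directions in this way.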

How the results depend on the processing

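For DOX in MLL-AF9-i139 the number of genes past an adjusted p under 0.05 was 12 of 19223, and it depended on the processing: 1556 with DESeq2, 562 with at least 1 count in total, 6 with at least 10 counts in at least 3 libraries, 2381 with the replicate block (the clone pairing) and 1234 in a fit of all 10 libraries. Leaving out 1 clone gave 0 (without clone 2) to 3981 (without clone 3). For DOX in MLL-AF9-ieGFP the count was 0, with 1 by DESeq2 and 1 with at least 1 count in total, and the block on the time point left it at 0. Between the untreated groups it was 9, with 44 by DESeq2, 37 with at least 1 count in total, and 0 (without either time of MLL-AF9-ieGFP) to 30 (without clone 3) when 1 replicate was left out. No paired analysis was possible between the untreated groups because a clone carries 1 construct. The cause of these shifts was not tested. Map2k6, Dusp1, Dusp10, Dusp5 and Map2k3 kept their direction in MLL-AF9-i139 under all 9 alternatives, and none of the 10 genes passed in either control comparison under any alternative. Low counts limit Dusp4 and Map2k6, each at 83 counts in 1 library.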

Other observations

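Other cell type markers gave small levels. Macrophage genes (7) summed to 21.0 to 25.8 CPM in untreated and 21.8 to 35.02 CPM in treated MLL-AF9-i139, with C1qa at 0 in all libraries. Mast cell genes (4) summed to 9.49 to 13.4 CPM in untreated and 15.6 to 18.3 CPM in treated MLL-AF9-i139, with Fcer1a at 0 in all libraries, and to 10.9 to 15.3 CPM in MLL-AF9-ieGFP.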
